A study of Oryza sativa with 4 samples.

Results

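The C- and D-class MADS-box genes of rice are OsMADS3, OsMADS58, OsMADS13 and OsMADS21, chosen by their locus identifiers among the 45027 loci of a table of read counts. All 4 had a row in it, and 3 carried enough reads to be tested. RNA came from panicles of the cultivar Dongjin, 0.3 to 1.5 cm long and at inflorescence stage 7. The mutant panicles carried emf2b-1, and the wild type (WT) carried no mutation that the labels name; genotypes were taken from the sample titles, since the extraction text speaks of wild-type tissue for all 4 samples. Each genotype had 2 libraries, told apart by a barcode: GAGT and TTAG for emf2b, ACCC and CGTA for WT. The comparison asks how transcript levels change in young panicles when EMF2B is mutated. The sources used here do not say whether the libraries of a genotype came from separate plants. The p-values of the fit thus rest on a spread between libraries that may be technical, estimated with information shared over loci.

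MADS-box genes encode transcription factors that act in combination to give each whorl of a flower its identity. C-class genes specify stamens and, with other factors, carpels, and they end the activity of the floral meristem, whereas D-class genes specify ovules. EMF2B is a subunit of Polycomb repressive complex 2 (PRC2), which represses genes by methylating a histone tail in their chromatin. In Arabidopsis the C-class gene AGAMOUS is a well-known target of that complex.

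The C-class role is shared in rice by OsMADS3 (LOC_Os01g10504, chromosome 1), which is known mainly for stamen identity, and OsMADS58 (LOC_Os05g11414, chromosome 5), known for floral determinacy and carpel form. OsMADS13 (LOC_Os12g10540, chromosome 12) is the D-class gene of ovule identity. OsMADS21 (LOC_Os01g66290, chromosome 1) is its sister in the D lineage, known from ovules and developing seeds, and its loss alone is known to leave flowers largely normal. Each locus was counted on a single gene model, and single reads of 40 cycles from the paralogs OsMADS3 and OsMADS58 could have been shared by the counting.

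EMF2B (LOC_Os09g13630, chromosome 9) had 128 and 201 reads in the emf2b libraries, against 942 and 1244 in the WT libraries, so the columns matched their labels (log2 fold change -1.83 ± 0.21 SE; adjusted p = 0.00661 in the quasi-likelihood test of edgeR). Library totals were 12932305 and 16926873 reads in emf2b and 25382519 and 32087683 in WT. Of 22615 loci tested, 13.5% were called higher in emf2b and 2.21% lower, at an adjusted p under 0.05. Whatever their call, 32.5% of the tested loci had both emf2b libraries above both WT libraries in counts-per-million (CPM), that is, reads scaled by the library total, and 24.6% had both below. All 5 young panicle markers had reads in every library. They summed to 341.7 and 323 CPM in emf2b and to 232 and 231 CPM in WT. Nearly all of these sums came from OsMADS14, OsMADS15 and OsMADS34, which are also in the flower lists used below. LAX1 had 2 and 18 reads in emf2b GAGT and TTAG, against 5 and 6 in WT ACCC and CGTA. TAW1 had 5 and 37 reads in emf2b GAGT and TTAG, against 3 and 6 in WT ACCC and CGTA. LAX1 and TAW1 did not pass the filter for the test. The 7 anther and tapetum markers summed to 7.66 and 14.9 CPM in emf2b and to 5.36 and 6.58 CPM in WT. TDR and PTC1, regulators of the tapetum, were at 0 in at least 1 library. TDR, PTC1 and CYP704B2 had too few reads for the test. None of the tested markers of this list was called, and they did not move together. EAT1 was at 1.93 and 7.68 CPM in emf2b and 1.42 and 0.592 CPM in WT. UDT1 was at 0.155 and 0.414 CPM in emf2b and 0.867 and 0.81 CPM in WT. The 6 green leaf markers summed to 28.5 and 63.4 CPM in emf2b and to 29.8 and 19.6 CPM in WT. Of the sum in emf2b TTAG, CAB1R alone made 46.2 CPM. In this list 1 marker was called, an RBCS gene (LOC_Os12g19381), and it was higher in emf2b. The part of these tissues in the results below was not tested.

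Of the 3 genes tested, OsMADS21 alone was called, and it was higher in emf2b, as were 13.5% of all tested loci. It had 24 reads in emf2b GAGT and 34 in emf2b TTAG, against 0 in WT ACCC and 6 in WT CGTA. Scaled by library total, that was 1.86 and 2.01 CPM in emf2b and 0 and 0.187 CPM in WT. Both mutant libraries lay far above both WT libraries, and they lay close to each other. A separation of any size in this direction was found at 32.5% of all tested loci.

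OsMADS21 averaged 1.93 ± 0.11 CPM (SD) over the 2 emf2b libraries and 0.093 ± 0.132 CPM over the 2 WT libraries. The log2 fold change was 4.12 ± 0.82 (SE), with a 95% interval of 2.22 to 6.02 (edgeR adjusted p = 0.0169). Reads summed over each genotype gave an 18.6-fold higher level in emf2b, with an exact 95% interval of 8.05 to 52.8 that covers counting error only. In bulk RNA, more cells that use the gene and more RNA in each such cell cannot be told apart.

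The size of the OsMADS21 difference can be given library by library, as a description. Emf2b GAGT was 9.92-fold above WT CGTA (exact 95% interval 3.95 to 29.7), and emf2b TTAG was 10.7-fold above it (4.46 to 31.3). WT ACCC had no read, so those ratios have only a lower limit, which the exact 95% interval puts at 11.8 for emf2b GAGT and 13.1 for emf2b TTAG. The emf2b libraries differed from each other by a factor of 0.924, GAGT over TTAG (0.524 to 1.60).

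The OsMADS21 call rested on having both WT libraries. Without WT ACCC the adjusted p was 0.160 (log2 fold change 3.29 ± 0.999 SE), and without WT CGTA it was 0.163 (8.14 ± 2.01), a value fitted against a lone library at 0 reads that measures no size. In these fits the number of calls over all loci also dropped, to 189 without WT ACCC and 20 without WT CGTA, against 3556 with all 4 libraries.

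The gene passed the low-count filter through its emf2b libraries alone, so any tested outcome for it had to be a higher one. With no filter on low counts the adjusted p was 0.0238 (log2 fold change 3.99 ± 0.82 SE). The reads that emf2b libraries had at loci without a WT read were also measured, and whether these are background or expression gained in the mutant was not tested. Across those 9379 loci, the 95th percentile was 5 reads in emf2b GAGT and 11 in emf2b TTAG, and the 99th was 10 and 22. The 24 and 34 reads of OsMADS21 exceeded both, which is a description and not a test. With 6 reads in WT CGTA the gene was not among those loci, and it was tested only through its emf2b counts. After all emf2b counts were lowered by the 95th percentile, the adjusted p was 0.0582 (log2 fold change 3.78 ± 0.94 SE), and by the 99th it was 0.156 (3.17 ± 1.16).

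**Figure D1:**
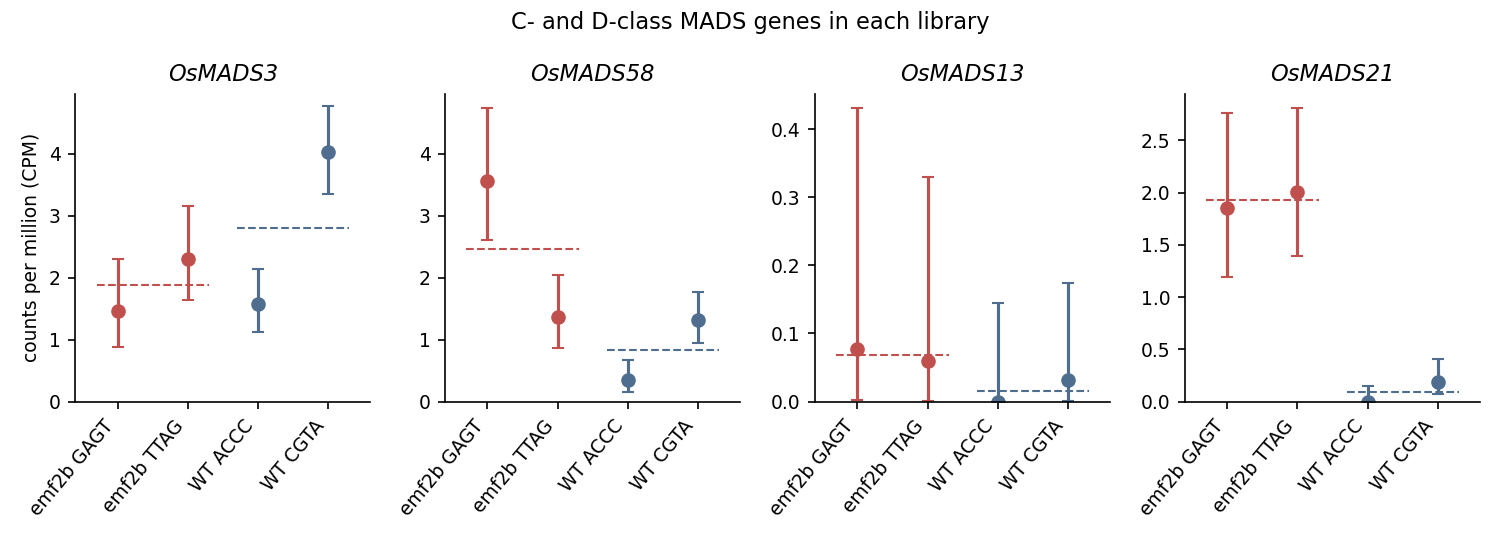
Level of each C- and D-class gene in counts-per-million (CPM, vertical axis, a scale of its own for each gene) in the 2 emf2b libraries (red) and the 2 WT libraries (blue). Points are libraries, bars are exact 95% Poisson intervals of the read count and dashed lines are group means; OsMADS21 sits at 1.86 and 2.01 CPM in emf2b and at 0 and 0.187 CPM in WT, while OsMADS3 overlaps between the genotypes.

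OsMADS58 was higher in the mutant libraries in CPM but did not pass the test. It had 46 reads in emf2b GAGT and 23 in emf2b TTAG, against 9 in WT ACCC and 42 in WT CGTA. The levels were 3.56 and 1.36 CPM in emf2b and 0.355 and 1.31 CPM in WT. The groups did not overlap, although emf2b TTAG and WT CGTA were almost level, and such a separation was found at 32.5% of all tested loci.

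OsMADS58 averaged 2.46 ± 1.55 CPM (SD) over the 2 emf2b libraries and 0.83 ± 0.67 CPM over the 2 WT libraries. Its log2 fold change was 1.43 ± 0.71 (SE; edgeR adjusted p = 0.239), and the 95% interval ran from -0.23 to 3.09. That interval reaches across 0 on one side and well past the point estimate on the other.

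Which pair of libraries was compared decided the size for OsMADS58. Emf2b GAGT was 10.03-fold above WT ACCC (exact 95% interval 4.85 to 23.3), whereas emf2b TTAG was 1.04-fold above WT CGTA (0.596 to 1.77). Within a genotype the gene differed by more than counting error. Emf2b GAGT was 2.62-fold above emf2b TTAG (1.55 to 4.52), and WT CGTA was 3.69-fold above WT ACCC (1.77 to 8.63). The spread between libraries of 1 genotype was therefore about as large as the fitted difference between genotypes, and the log2 fold change ran from 0.56 to 2.68 when 1 library was left out.

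OsMADS3 showed no called difference. It had 19 reads in emf2b GAGT and 39 in emf2b TTAG, against 40 in WT ACCC and 129 in WT CGTA. The levels were 1.47 and 2.30 CPM in emf2b and 1.58 and 4.02 CPM in WT. The groups overlapped, with WT ACCC between the mutant libraries and WT CGTA above all others.

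OsMADS3 averaged 1.89 ± 0.59 CPM (SD) over the 2 emf2b libraries and 2.80 ± 1.73 CPM over the 2 WT libraries. The log2 fold change was -0.60 ± 0.56 (SE; edgeR adjusted p = 0.536), with a 95% interval of -1.90 to 0.70. Its sign depended on WT CGTA: the log2 fold change was 0.21 ± 0.68 without that library. WT CGTA exceeded WT ACCC 2.55-fold (exact 95% interval 1.78 to 3.73), beyond counting error, while the mutant libraries had a ratio of 0.638, GAGT over TTAG (0.348 to 1.13).

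OsMADS13 was barely detected in either genotype. It had 1 read in each emf2b library, against 0 in WT ACCC and 1 in WT CGTA. A minimum of 3 reads, equal to 0.232 and 0.177 CPM in the emf2b libraries and 0.118 and 0.0935 CPM in the WT libraries, was reached in none of the 4. No difference was detectable at this depth, and no fold is given. At this stage of the panicle the ovule identity gene was thus not measurable, while its sister OsMADS21 carried 58 reads over the mutant libraries and 6 over the WT libraries.

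**Figure D2:**
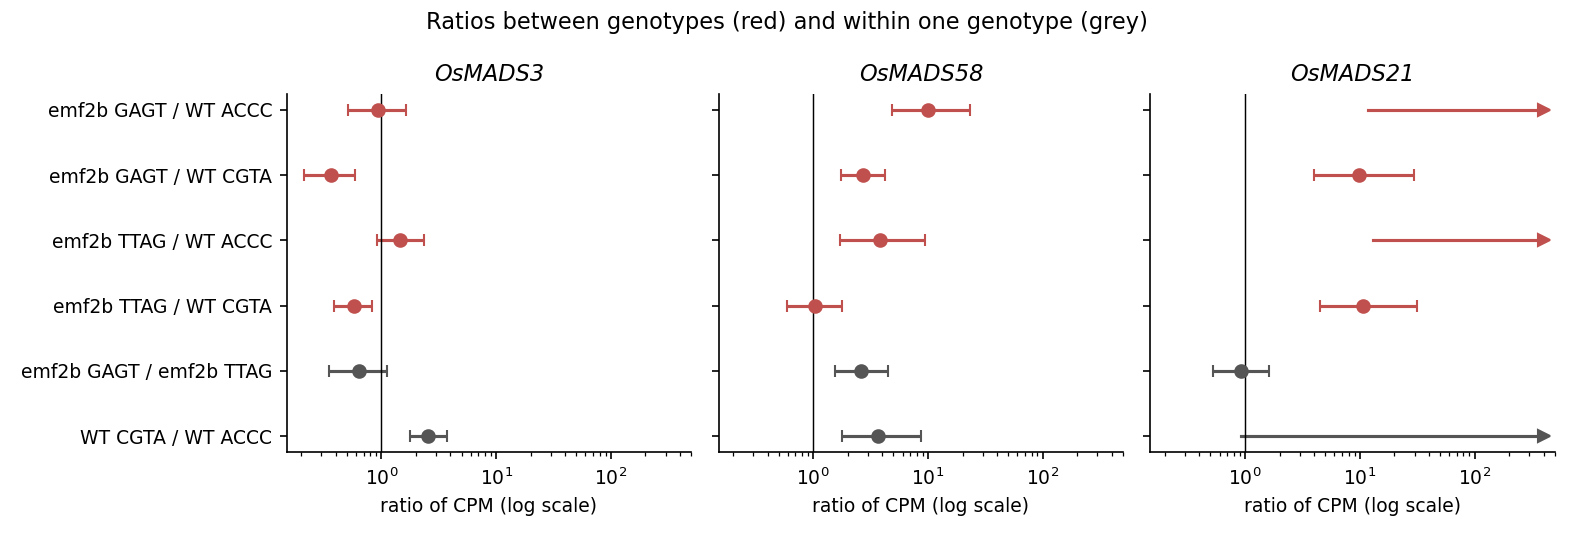
Ratio of CPM between single libraries for OsMADS3, OsMADS58 and OsMADS21 on a log axis, between genotypes as emf2b over WT (red) and within 1 genotype (grey). Points are ratios and bars exact 95% intervals covering counting error only, with an arrow where WT ACCC had no read; the OsMADS21 ratios between genotypes are all near 10 or above, while for OsMADS58 they range from 1.04 to 10.03.

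The C- and D-class reads were split among the 4 genes as follows, which describes 4 libraries. Summed over the 4 genes, the emf2b libraries held 90 and 97 reads, against 49 and 178 in the WT libraries. That was 6.96 and 5.73 CPM in emf2b and 1.93 and 5.55 CPM in WT, so both mutant libraries were above both WT libraries, but emf2b TTAG and WT CGTA were close. The sum averaged 6.34 ± 0.87 CPM (SD) over the 2 emf2b libraries and 3.74 ± 2.56 CPM over the 2 WT libraries. These sums count reads without regard to transcript length, so they do not rank the genes against each other, and only changes of a share between libraries are compared.

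OsMADS3 supplied 21.1% of these reads in emf2b GAGT (exact 95% binomial interval 13.2% to 31.0%) and 40.2% in emf2b TTAG (30.4% to 50.7%). In WT it supplied 81.6% in ACCC (68.0% to 91.2%) and 72.5% in CGTA (65.3% to 78.9%). These intervals cover counting error within a library and do not test the genotypes, for which 2 libraries against 2 cannot give an exact permutation p below 0.333. A share also moves with the other genes in the sum: OsMADS3 itself overlapped between the genotypes in CPM, while OsMADS21 was higher in both emf2b libraries. OsMADS58 was well above both WT libraries in emf2b GAGT. In emf2b TTAG, at 1.36 CPM, it was almost level with WT CGTA at 1.31 CPM.

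OsMADS21 supplied 26.7% in emf2b GAGT (17.9% to 37.0%) and 35.1% in emf2b TTAG (25.6% to 45.4%). In WT ACCC it supplied none of the 49 reads, with an upper bound of 7.25%, and in WT CGTA 3.37% (1.25% to 7.19%). OsMADS58 supplied 51.1% and 23.7% in emf2b, against 18.4% and 23.6% in WT. Its share stood apart in emf2b GAGT and was nearly the same in the other 3 libraries.

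A ratio inside a library needs no scaling between libraries, so the C-class pair was also compared in that way. OsMADS58 made up 70.8% of the OsMADS3 and OsMADS58 reads in emf2b GAGT (46 of 65, exact 95% binomial interval 58.2% to 81.4%) and 37.1% in emf2b TTAG (23 of 62, 25.2% to 50.3%). It made up 18.4% in WT ACCC (9 of 49, 8.76% to 32.0%) and 24.6% in WT CGTA (42 of 171, 18.3% to 31.7%). The mutant libraries were both higher, but the intervals of emf2b TTAG and the WT libraries overlapped.

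The mean share of OsMADS58 was 53.9% ± 23.8 in emf2b and 21.5% ± 4.38 in WT (SD, n = 2 each), a difference of 32.5 percentage points. A two-sided exact permutation test gave p = 0.333, the smallest value that 2 libraries against 2 allow. The difference ran from 15.6 points without emf2b GAGT to 49.3 points without emf2b TTAG.

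**Figure D3:**
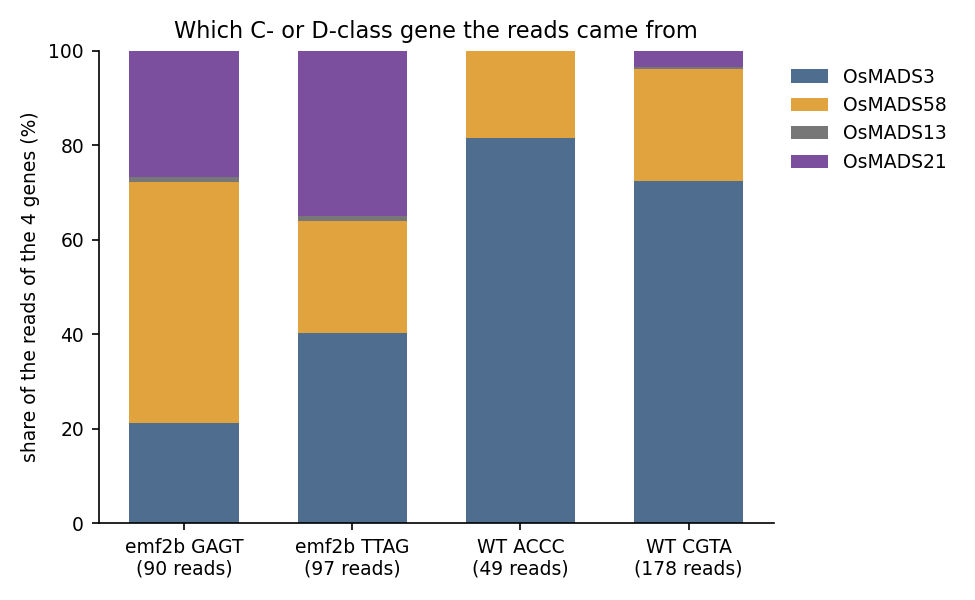
Share of the summed reads of OsMADS3, OsMADS58, OsMADS13 and OsMADS21 (vertical axis, percent) that each gene supplied in the 2 emf2b and the 2 WT libraries, with the number of reads under each bar. OsMADS3 holds 21.1% and 40.2% in emf2b and 81.6% and 72.5% in WT, and OsMADS21 holds 26.7% and 35.1% in emf2b and 0% and 3.37% in WT.

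The WT libraries differed at these genes more than at most loci. OsMADS3, OsMADS58 and OsMADS21 were all at least 2-fold higher in WT CGTA than in WT ACCC, on log2 (CPM + 0.1), as were 3.18% of the 22615 tested loci. For OsMADS21 that step rests on 6 reads against 0, and its exact interval starts at 0.931-fold. Of the 21 tested flower genes described below, 16 were higher in WT CGTA and 1 was at least 2-fold higher, the B-class gene OsMADS4. Their median log2 ratio was 0.47, beside 0.03 over all tested loci. Between the emf2b libraries only OsMADS58 differed beyond counting error, and it was higher in GAGT. For OsMADS3 and OsMADS21 the difference was within counting error. Their GAGT over TTAG ratios were 0.638 (exact 95% interval 0.348 to 1.13) and 0.924 (0.524 to 1.60). The stage range of the panicles was 0.3 to 1.5 cm for every sample, and the part of panicle age in these differences was not tested.

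Among other genes of flower identity and determinacy, 0 were called higher and 6 lower in emf2b out of 21 tested, beside 13.5% higher and 2.21% lower over all loci. The list held 26 genes: B-class, carpel and B-sister, E-class, AGL6-clade, APETALA1-like, AP2 and meristem determinacy genes. Their median log2 fold change was -0.20, beside 0.01 over all loci. Those called lower were the B-class gene OsMADS16 and its activator STAMENLESS1 (SL1), the carpel gene DROOPING LEAF (DL), the E-class genes OsMADS1 and OsMADS8, and OsMADS6 of the AGL6 clade. Their log2 fold changes ran from -3.97 for OsMADS8 to -1.69 for DL. The 6 calls became 3 without WT ACCC and 1 without WT CGTA. A gene of the list was called higher under 3 alternatives. These were OsMADS34 with DESeq2 (adjusted p = 0.0289) and without emf2b TTAG (log2 fold change 1.58), and OsMADS30 without emf2b GAGT (4.09). OsMADS30 entered that last fit through emf2b TTAG alone, so any outcome for it there had to be a higher one.

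In that company OsMADS21 had the highest log2 fold change of 24 tested genes and OsMADS58, which was not called, the second highest. OsMADS3 was in place 17. After OsMADS58 came OsMADS34, an E-class gene of panicle branching, at 1.15 ± 0.34 (SE, edgeR adjusted p = 0.0644). OsMADS21 entered this ranking through its emf2b libraries alone, and flower genes that failed the low-count filter were not ranked. Over all tested loci, 5.37% had a larger log2 fold change than OsMADS21, 17.1% a larger one than OsMADS58, and 10.4% a smaller one than OsMADS3. A rise of this size was thus not particular to OsMADS21.

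In the lists without a call, the largest differences among tested genes were the APETALA1-like gene OsMADS14 at 0.54 ± 0.18, SNB, an AP2 gene of the spikelet meristem, at -0.20 ± 0.24, and FON1, a receptor kinase gene that limits meristem size, at 0.69 ± 0.46 (log2 fold change ± SE; edgeR adjusted p = 0.0950, 0.641 and 0.384).

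**Figure D4:**
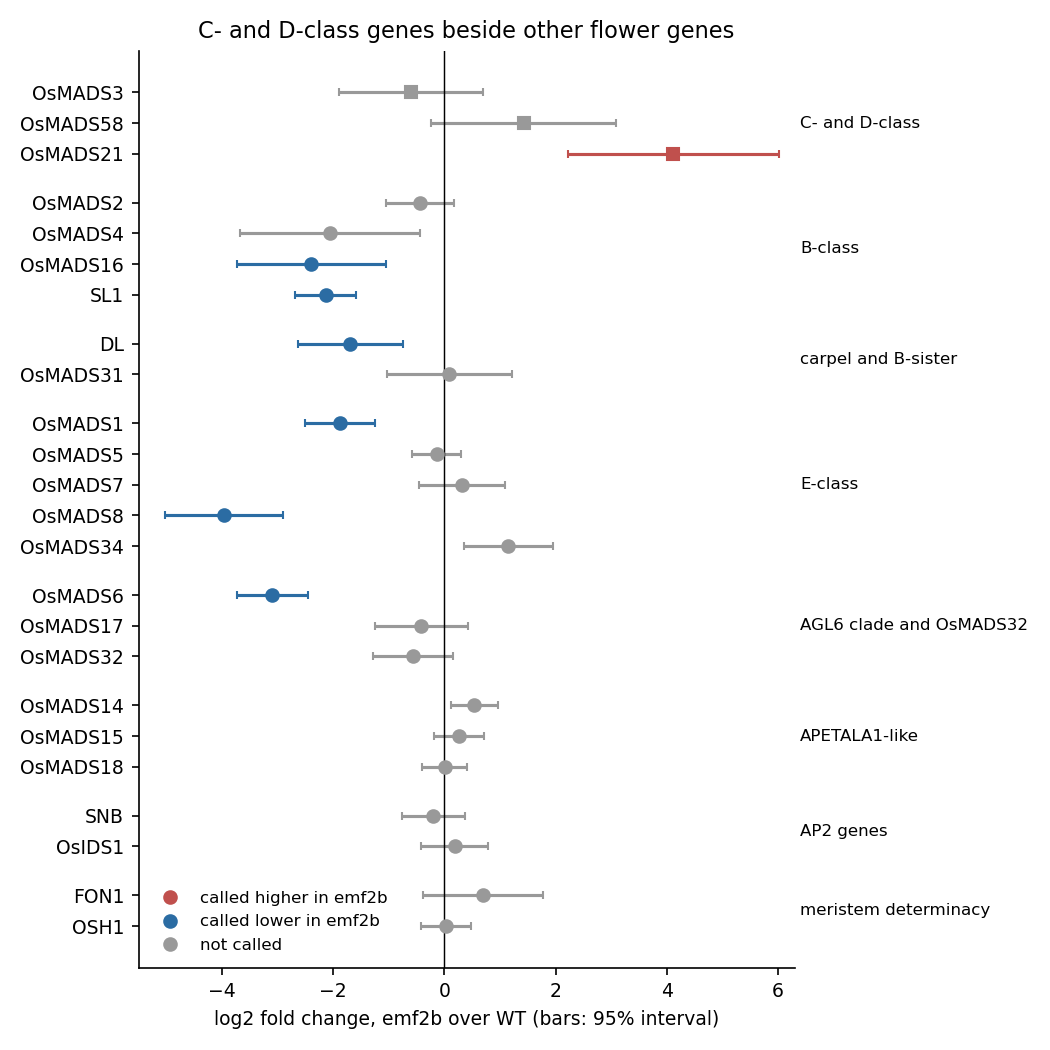
Log2 fold change of emf2b over WT (horizontal axis) for the 3 tested C- and D-class genes (squares) and 21 other flower genes (circles), with 95% intervals from the edgeR quasi-likelihood fit. OsMADS21 stands at 4.12 in red, called higher; the 6 genes in blue were called lower, from -3.97 to -1.69, and grey genes were not called.

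The list also held 5 genes with too few reads for the test, named here after their values were seen. OsMADS29, a B-sister gene known from ovules and seeds, had 5 and 13 reads in emf2b GAGT and TTAG, against 3 and 7 in WT ACCC and CGTA. OsMADS30, another gene of that lineage, had 5 and 23 reads in emf2b and 3 and 1 in WT. OsMADS20, of the APETALA1-like group, had 3 and 10 reads in emf2b and 0 and 1 in WT. FON4, a small secreted peptide gene of meristem size, had 3 reads in each emf2b library and none in WT. TAB1, a WUSCHEL-type gene, had 0 and 1 read in emf2b and 1 and 0 in WT. In emf2b the reads of OsMADS29, OsMADS30, OsMADS20 and FON4 were between 3 and 23, beside 99th percentiles of 10 in GAGT and 22 in TTAG over loci without a WT read. With all 4 libraries these genes did not pass the low-count filter. OsMADS30 passed it without emf2b GAGT, through emf2b TTAG alone, and was called higher in that fit.

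By their profiles over the 4 libraries, OsMADS3 and the other 2 tested genes had different nearest neighbours. Likeness was the Euclidean distance between log2 CPM profiles centred on their own mean, over 21 flower genes and 4 libraries. For OsMADS3 the nearest were OsMADS32, a flower MADS gene, at a distance of 0.378, and the B-class gene OsMADS2 at 0.598, beside a median of 1.29. OsMADS32 was at 25.1 and 28.7 CPM in emf2b and at 26.1 and 51.8 CPM in WT, and so was high in WT CGTA as OsMADS3 was.

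For OsMADS58 the nearest were the E-class genes OsMADS7 at 1.38 and OsMADS34 at 1.49, beside a median of 2.26. OsMADS7 was at 60.4 and 38.8 CPM in emf2b and at 27.7 and 50.5 CPM in WT, with the same order of libraries as OsMADS58 at its ends and WT CGTA above emf2b TTAG. For OsMADS21 the nearest were OsMADS34 at 2.99 and OsMADS14 at 3.28, beside a median of 3.96. None of the 21 genes compared thus came close to it. Flower genes that failed the low-count filter, such as OsMADS20 and OsMADS30, were not compared. These distances describe 4 libraries and carry no test.

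**Figure D5:**
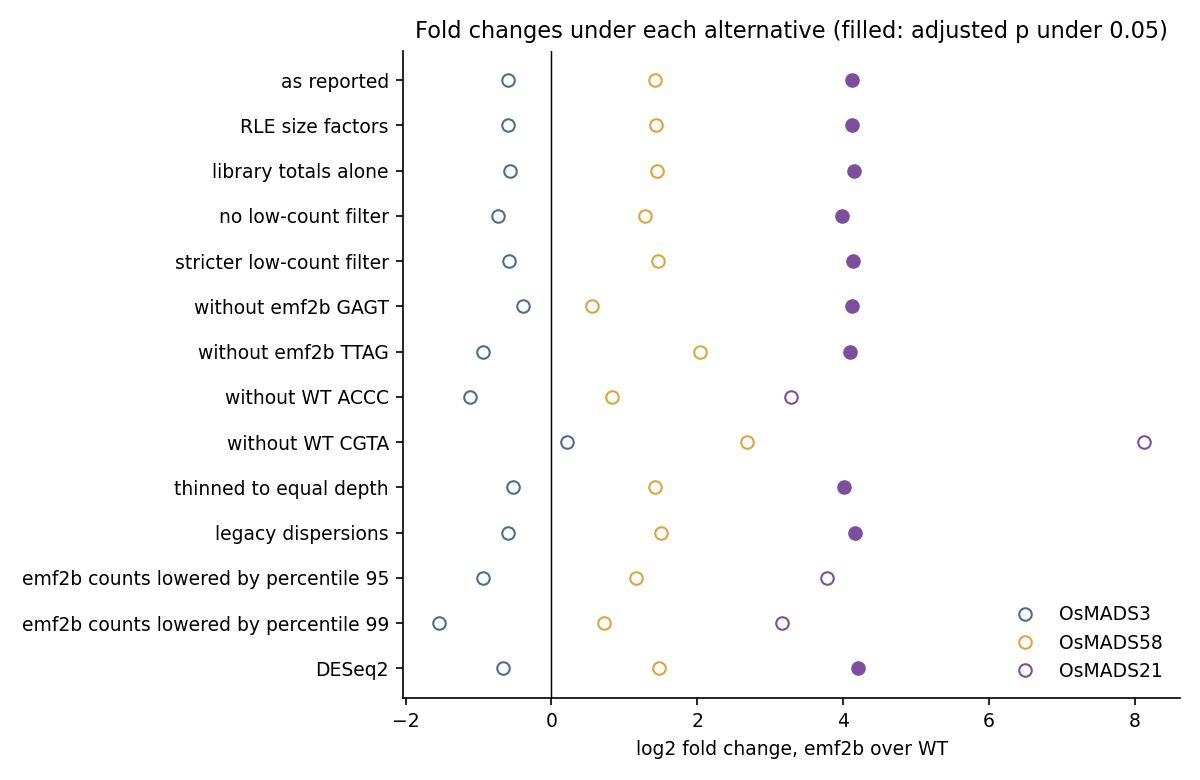
Log2 fold change of emf2b over WT (horizontal axis) for OsMADS3, OsMADS58 and OsMADS21 under the reported setting and 13 alternatives (rows), with filled circles where the adjusted p was under 0.05. OsMADS21 stays between 3.17 and 8.14 and is filled in 9 of the 13 alternatives, OsMADS58 stays above 0 and is never filled, and OsMADS3 is below 0 except without WT CGTA, where it is 0.21.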

How the data were processed

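The deposited table holds raw read counts per gene model, not normalized; the authors named TopHat2 2.0.5 and DESeq 1.10.1, per the submitters' processing notes. The sources used here do not give the counter, the genome build, the annotation or how strand was handled. The columns carry the genotype and a barcode but no replicate number, so each was assigned to its genotype only. Counts were filtered with filterByExpr (minimum count 10, minimum total 15) and scaled by TMM, leaving 22615 of 45027 loci. They were tested with edgeR 4.0.16 in R 4.3.3 (glmQLFit with legacy turned off, then glmQLFTest; a model of genotype alone, which leaves 2 residual degrees of freedom). The test was two-sided, p-values were adjusted by Benjamini-Hochberg over all tested loci, and the threshold was 0.05. The spread of each locus was estimated with information shared over all tested loci. The fit was also run on simulated counts with the same spread at every locus. That run does not cover loci that vary more between libraries. A standard error was obtained from each log2 fold change and its F statistic. CPM used library totals. Exact intervals (SciPy 1.17.1) are at 95% and, like the floor of 3 reads, cover counting error only. Alternatives were DESeq2 1.42.0, other scalings, filters and dispersions, thinning, lowered emf2b counts and leaving out each library. Named genes were the 4 genes, EMF2B, every called gene of 7 flower lists or else the gene with the largest change, and the 2 nearest profiles. Genes and lists were chosen with earlier results of these data known. Of 31 names, 25, among them those of all 4 C- and D-class genes, occurred on the chromosome of their locus in a RefSeq table of assembly ASM3414082v1; no coordinates were taken from it, and the others, such as EMF2B and OsMADS32, rest on general knowledge. No sequences or transcript lengths were used here.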

Additional observations from a re-analysis of the deposited data

How the results depend on the processing

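Scaling, thinning, DESeq2, legacy dispersions (chosen after the data were seen) and both count filters kept the direction and the call of OsMADS3, OsMADS58, OsMADS21 and EMF2B. With 1 library left out, log2 fold changes ran from 3.29 to 8.14 for OsMADS21 (call lost without either WT library), from -1.12 to 0.21 for OsMADS3 (sign turned without WT CGTA), and from -1.94 to -1.77 for EMF2B (adjusted p = 0.0843 without WT CGTA and 0.0499 without WT ACCC). These fits leave 1 residual degree of freedom, and the lone library is assumed to vary like the other genotype. Lowering emf2b counts by the 95th and 99th percentile of loci with no WT read gave 3.78 and 3.17 for OsMADS21, both not called. Over all loci there were 3556 calls, 2354 with at least 1 CPM in 2 libraries, 1450 and 765 with lowered counts, and 20 to 3927 with 1 library left out; the flower list had 0 higher and 6 lower, 1 higher and 6 lower with DESeq2, 1 higher with either emf2b library left out, and 1 to 6 calls in all with 1 library left out. The cause was not tested. OsMADS13 has no value in the filtered fits, and the share of OsMADS58 per coding length was not run because no length was used here. No paired analysis was possible because the columns carry no replicate numbers. Library depth limits OsMADS13 and the WT level of OsMADS21.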
